A study of Mus musculus with 5 samples.

Results

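The integrated stress response and the unfolded protein response were followed through 10 genes in mouse kidneys after unilateral ischemia-reperfusion injury (UIRI). The genes, Atf4, Atf5, Ddit3, Trib3, Chac1, Asns, Psat1, Phgdh, Xbp1 and Hspa5, were taken by symbol from tables of 35478 genes, and all 10 were listed. They were compared between 2 Prdm16fl/fl UIRI mice, numbered 1 and 3, and 3 Ksp-Cre/Prdm16fl/fl UIRI mice, numbered 1 to 3. Each mouse gave 1 RNA-seq library of 14939040 to 16425161 counted reads. By the study's methods all were male and aged 7 to 8 weeks, and littermate controls were used. The methods give the strain as C57BL/6J;129, while the sample labels say C57BL/6J. Both groups carried the floxed Prdm16 allele, with loxP sites around exon 9. In Ksp-Cre/Prdm16fl/fl animals, Cre under the kidney-specific cadherin promoter acts in tubular epithelium, so other cells of the kidney keep the gene. In both groups the left renal pedicle was clamped for 35 min at 38.5 °C, the right kidney was taken out on day 10, and the injured left kidney was collected on day 11. Cortex was used. No uninjured kidney entered the comparison, so every difference is one between the genotype groups after injury.

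In the integrated stress response, kinases that sense amino acid shortage, misfolded protein, heme loss or double-stranded RNA phosphorylate the translation factor eIF2. Most protein synthesis then slows, while the mRNA of the transcription factor ATF4 is translated more, and ATF4 raises genes for amino acid supply and for cell death. In the unfolded protein response, the sensors PERK, IRE1 and ATF6 report misfolded protein in the endoplasmic reticulum (ER): PERK is an eIF2 kinase, IRE1 splices the Xbp1 mRNA, and ATF6 and spliced XBP1 raise ER chaperones. Both responses are well known in injured renal tubules. Gene counts show neither ATF4 translation nor Xbp1 splicing, so only mRNA levels are described.

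The arms act through different DNA elements. ATF4 binds C/EBP-ATF response elements (CARE), and ATF6 binds ER stress elements (ERSE), so both were searched on both strands of RefSeq promoters (GRCm38.p6) running from 250 bases before the transcription start to 50 after it. All 10 genes had a promoter in the table, with 12 promoters in all. CARE, spelled TGATGNAA, lay in 1304 of 32851 promoters (3.97%) and in those of Asns, Chac1 and Trib3. ERSE, spelled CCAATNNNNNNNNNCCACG, lay in 39 promoters (0.119%) and among the 10 genes only in that of Hspa5. The shorter ERSE-II (ATTGGNCCACG, 0.0365% of promoters) and the UPRE (TGACGTGG, 0.676%) matched none of the 12. Atf4, Atf5, Ddit3, Psat1, Phgdh and Xbp1 had no match to any of these elements. The 4 matches follow, with the matched letters in capitals. The 250 bases before the start are given for Hspa5 (chr2:34771840-34772089, plus strand), Asns (chr6:7693210-7693459, minus strand) and Chac1 (chr2:119350992-119351241, plus strand). For Trib3, whose match began at transcribed base 15, 30 bases around it are given (chr2:152344028-152344057, minus strand). In Chac1 and Trib3 the match is on the opposite strand, so the capitals read as its reverse complement.
Hspa5: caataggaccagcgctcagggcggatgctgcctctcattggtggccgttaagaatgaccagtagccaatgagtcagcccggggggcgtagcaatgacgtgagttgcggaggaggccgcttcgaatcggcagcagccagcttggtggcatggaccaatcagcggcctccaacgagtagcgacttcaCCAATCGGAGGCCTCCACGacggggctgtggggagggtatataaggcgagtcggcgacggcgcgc
Asns: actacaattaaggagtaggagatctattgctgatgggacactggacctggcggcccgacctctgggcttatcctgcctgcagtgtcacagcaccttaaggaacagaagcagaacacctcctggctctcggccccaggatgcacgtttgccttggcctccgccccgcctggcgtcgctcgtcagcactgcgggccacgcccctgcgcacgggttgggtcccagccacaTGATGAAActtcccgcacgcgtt
Chac1: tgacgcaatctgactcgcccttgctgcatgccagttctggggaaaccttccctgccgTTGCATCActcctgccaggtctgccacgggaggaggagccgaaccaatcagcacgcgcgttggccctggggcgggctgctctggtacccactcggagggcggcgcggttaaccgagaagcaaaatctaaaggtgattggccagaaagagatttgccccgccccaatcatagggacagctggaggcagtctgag
Trib3: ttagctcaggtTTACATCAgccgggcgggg
A match describes the sequence only, and binding was not measured.

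The 10 genes spanned a wide range of levels. By deposited TPM, which corrects for gene length, the order in Prdm16fl/fl kidneys was Hspa5 (421 ± 48.8, SD, n = 2), Xbp1 (237 ± 2.10), Atf4 (121 ± 2.58), Phgdh (23.2 ± 1.09), Psat1 (22.7 ± 3.19), Atf5 (18.5 ± 3.64), Ddit3 (18.5 ± 0.38), Asns (10.4 ± 0.21), Chac1 (1.61 ± 0.79) and Trib3 (1.45 ± 0.09). The values of Phgdh and Psat1, of Psat1 and Atf5, of Atf5 and Ddit3, and of Chac1 and Trib3 overlapped, so these neighbors could not be ordered. In Ksp-Cre/Prdm16fl/fl kidneys the same 3 genes led, with Hspa5 at 401 ± 193 (n = 3), Xbp1 at 336 ± 15.02 and Atf4 at 165 ± 43.9, and there the Hspa5 and Xbp1 values overlapped.

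None of the 10 genes passed the test between genotypes, in edgeR or in DESeq2. Levels below are CPM, the reads of a gene per 1000000 reads, after TMM scaling, the differences are log2 fold changes of Ksp-Cre/Prdm16fl/fl minus Prdm16fl/fl ± SE from edgeR's quasi-likelihood test, and a gene was called where the adjusted p was under 0.05 and the log2 fold change was -1 or lower, or 1 or higher. All 10 were among the 16394 genes tested, of which 116 (0.708%) were called and 160 (0.976%) had an adjusted p under 0.05 at any fold. Of the estimates, 7 were positive and 3 negative, with a median of 0.25 against 0.038 over all genes tested. Only Asns had an unadjusted p under 0.05, where 7.64% of all genes did with a higher level and 11.2% with a lower level. In Asns, Trib3, Xbp1 and Phgdh all 3 Ksp-Cre/Prdm16fl/fl kidneys lay above both Prdm16fl/fl kidneys, and no gene showed the opposite. The first pattern held for 20.3% of all genes and the opposite one for 21.3%. Cell type markers stood apart between the groups as well, and in whole tissue fewer cells of a type cannot be told apart from less RNA per cell. All 10 proximal tubule markers were lower in every Ksp-Cre/Prdm16fl/fl kidney, with a summed level of 1737 to 3341 CPM against 7709 to 7791, and the 7 tubular injury markers summed to 32018 to 37997 CPM against 14947 to 15509. Their part in the results was not tested.

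**Figure D1:**
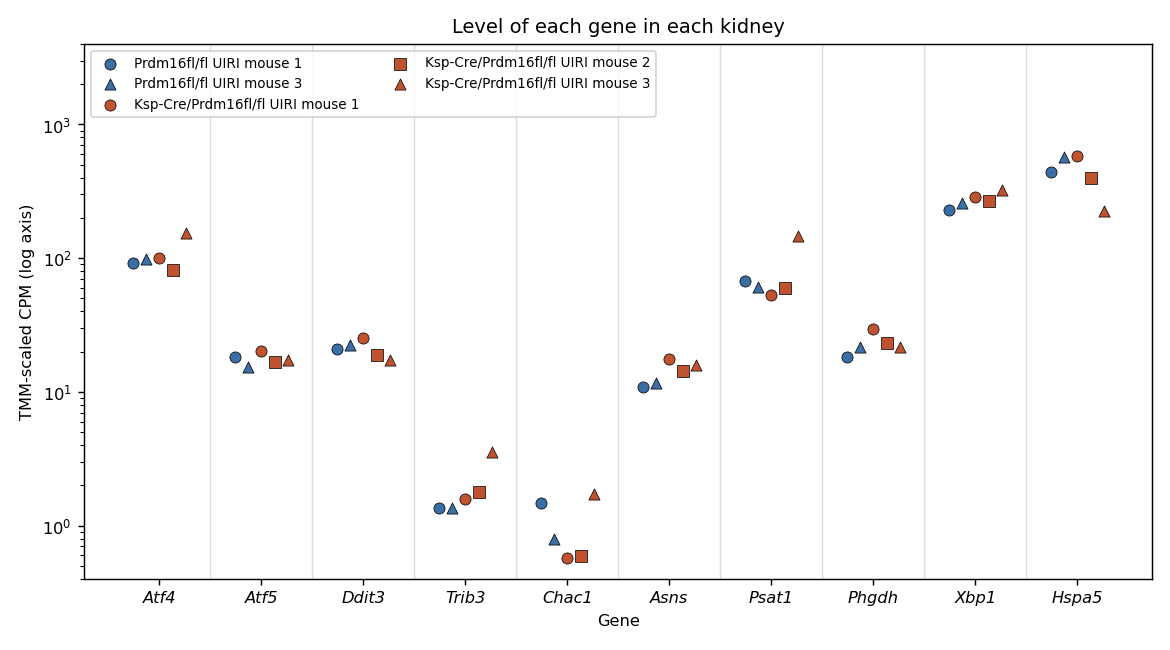
TMM-scaled CPM (log axis) of the 10 stress response genes in each of the 5 kidneys, 1 point per mouse, Prdm16fl/fl UIRI in blue and Ksp-Cre/Prdm16fl/fl UIRI in orange. Ksp-Cre/Prdm16fl/fl mouse 3 (orange triangle) has the highest Atf4 (154 CPM), Psat1 (147) and Trib3 (3.53) and the lowest Hspa5 (226).

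The transcription factors came out close to each other between genotypes. Atf4 (chromosome 15, 80139385 to 80141746, in the coordinates of the files), the main effector of the integrated stress response, stood at 92.6 and 99.1 CPM in the Prdm16fl/fl kidneys (mice 1 and 3) and at 101, 81.6 and 154 CPM in the Ksp-Cre/Prdm16fl/fl kidneys (mice 1, 2 and 3, in that order throughout). The groups overlapped, mouse 3 of the Ksp-Cre/Prdm16fl/fl group alone stood far above the rest, and the difference was 0.23 ± 0.27 (adjusted p = 0.69, edgeR). Without that mouse it was -0.066. Atf5 (chromosome 7, 44461680 to 44466082), a related factor that is also translated under stress and is tied to mitochondrial protein damage, read 18.3 and 15.3 CPM against 20.1, 16.6 and 17.5 CPM. These values overlapped, with a difference of 0.10 ± 0.17 (adjusted p = 0.78, edgeR). Ddit3 (chromosome 10, 127126662 to 127132160) encodes CHOP, the factor that promotes death under prolonged stress, and read 20.8 and 22.2 CPM against 25.3, 19.0 and 17.5 CPM. Its Ksp-Cre/Prdm16fl/fl kidneys lay on both sides of the Prdm16fl/fl kidneys (-0.064 ± 0.19, adjusted p = 0.89, edgeR), and the sign turned under library size scaling (0.057).

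Trib3 and Chac1, stress-induced genes at the low end of the range, split the kidneys differently. Trib3 (chromosome 2, 152179345 to 152185980), a pseudokinase that restrains AKT and ATF4, was at 1.35 and 1.36 CPM in Prdm16fl/fl kidneys and at 1.59, 1.77 and 3.53 CPM in Ksp-Cre/Prdm16fl/fl kidneys. Every Ksp-Cre/Prdm16fl/fl kidney was higher, and mouse 3 carried much of the estimate of 0.75 ± 0.45 (adjusted p = 0.43, edgeR), which was 0.31 without it. Chac1 (chromosome 2, 119181723 to 119184807), which breaks down glutathione, was at 1.48 and 0.789 CPM against 0.568, 0.591 and 1.73 CPM, from 10 to 26 reads per kidney. Mice 1 and 2 of the Ksp-Cre/Prdm16fl/fl group lay below and mouse 3 above both Prdm16fl/fl kidneys, and the difference was -0.26 ± 0.63 (adjusted p = 0.85, edgeR). The reads were few and the kidneys of each group disagreed, so the estimate was uncertain. It became 0.27 without Prdm16fl/fl mouse 1 and -0.97 without Ksp-Cre/Prdm16fl/fl mouse 3.

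Amino acid synthesis is the supply side of the ATF4 program. Asns (chromosome 6, 7675165 to 7693209), asparagine synthetase, gave 10.9 and 11.7 CPM in Prdm16fl/fl kidneys and 17.6, 14.4 and 15.99 CPM in Ksp-Cre/Prdm16fl/fl kidneys. All 3 kidneys of the latter group were higher, with a clear gap between the groups. The difference of 0.50 ± 0.17 had an unadjusted p of 0.0225 and an adjusted p of 0.19 (edgeR), and leaving out any 1 mouse kept it between 0.43 and 0.57, with an adjusted p of 0.056 without Ksp-Cre/Prdm16fl/fl mouse 3. Phgdh (chromosome 3, 98220487 to 98247285) catalyzes the entry step of serine synthesis and read 18.3 and 21.5 CPM against 29.3, 23.4 and 21.7 CPM. The groups did not overlap, but the margin was narrow, and the difference was 0.32 ± 0.18 (adjusted p = 0.40, edgeR), or 0.18 without Ksp-Cre/Prdm16fl/fl mouse 1. Psat1 (chromosome 19, 15882487 to 15902423), the aminotransferase that follows Phgdh in that pathway, read 67.8 and 61.2 CPM against 52.8, 60.3 and 147 CPM. Mice 1 and 2 of the Ksp-Cre/Prdm16fl/fl group lay below both Prdm16fl/fl kidneys and mouse 3 far above them, so the estimate of 0.43 ± 0.45 (adjusted p = 0.65, edgeR) became -0.19 without mouse 3.

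The ER genes moved apart from each other. Xbp1 (chromosome 11, 5470641 to 5475993), the substrate of IRE1, stood at 230 and 257 CPM in Prdm16fl/fl kidneys and at 289, 267 and 323 CPM in Ksp-Cre/Prdm16fl/fl kidneys. Its groups did not overlap, and the difference was 0.27 ± 0.14 (adjusted p = 0.37, edgeR). Hspa5 (chromosome 2, 34662102 to 34666541) encodes BiP, the main ER chaperone, and stood at 441 and 573 CPM against 578, 395 and 226 CPM. Mouse 1 of the Ksp-Cre/Prdm16fl/fl group matched the higher Prdm16fl/fl kidney, and mouse 3 was the lowest of all. The difference was -0.34 ± 0.38 (adjusted p = 0.66, edgeR), and it ranged from -0.71 without Ksp-Cre/Prdm16fl/fl mouse 1 to -0.054 without mouse 3.

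The scale mattered for how many groups separated. On deposited TPM, 5 of the 10 genes (Atf4, Trib3, Xbp1, Asns and Phgdh) had every Ksp-Cre/Prdm16fl/fl kidney above both Prdm16fl/fl kidneys, but so did 39.5% of all genes tested. The median log2 ratio of mean TPM over all genes tested was 0.28, against 0.48 for the 10 genes.

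Around these 10 genes, 130 other genes of the 2 responses were read as 9 lists, and 128 were tested (Fgf21 and Fkbp2 fell under the filter on low counts). A single gene was called, Shmt2. Of the 128, 7 were higher and 7 lower at an unadjusted p under 0.05 (7.64% and 11.2% of all genes). Groups did not overlap for 27 higher and 28 lower genes, a share near that of all genes (20.3% and 21.3%), and the median log2 fold change was 0.024. DESeq2 called 3 of 130 genes, Shmt2 and Cth lower and Gdf15 higher, where it called 3.06% of all genes.

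**Figure D2:**
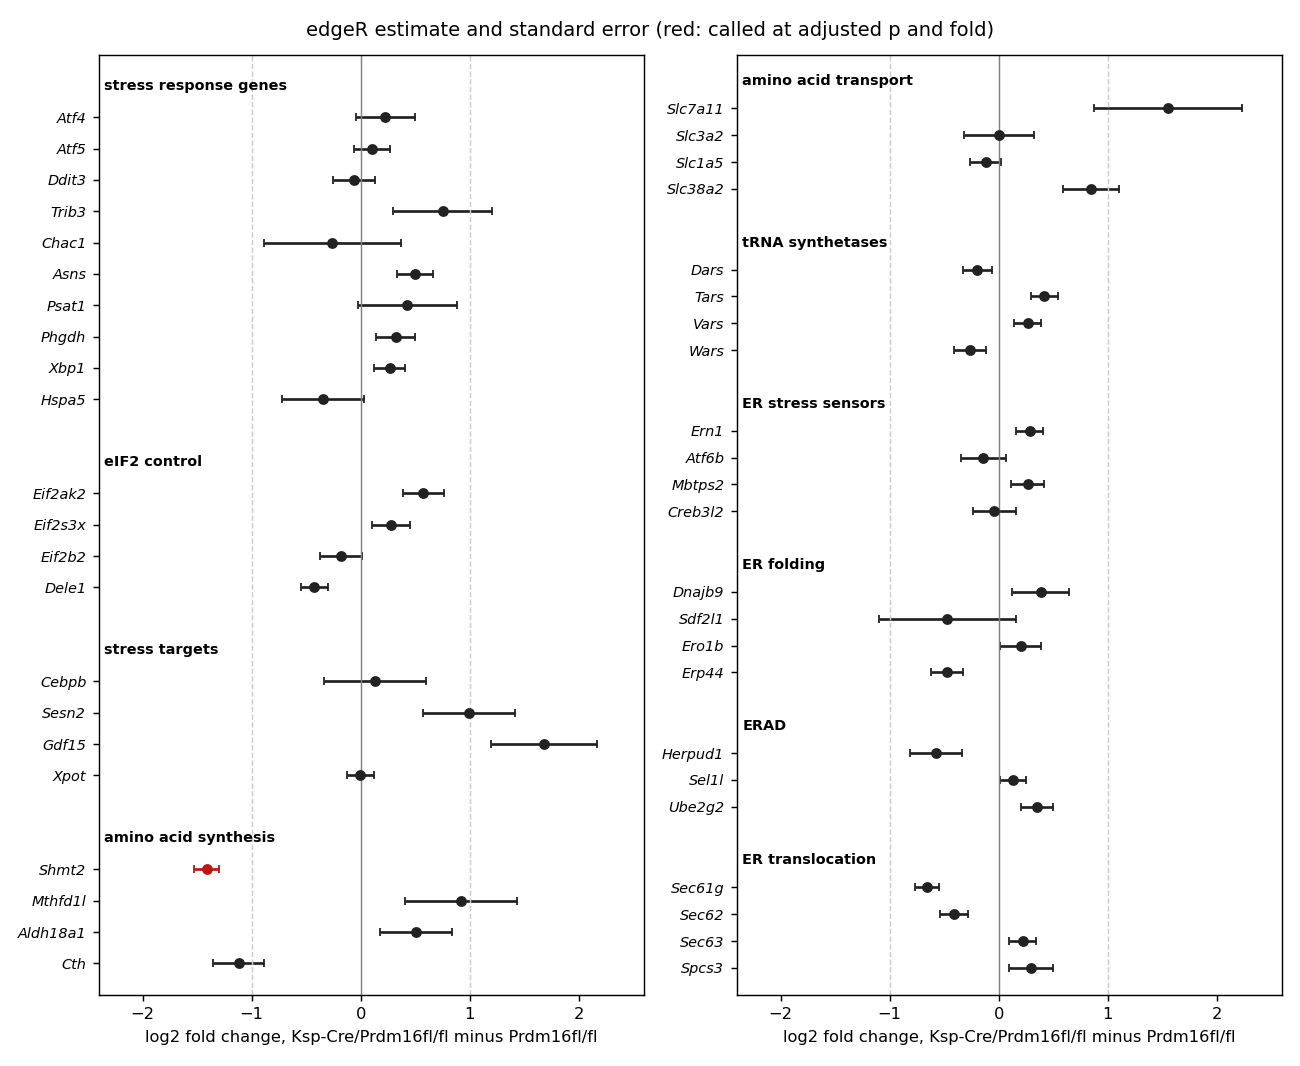
log2 fold change (Ksp-Cre/Prdm16fl/fl minus Prdm16fl/fl, 3 against 2 kidneys) with its SE for the 10 stress response genes and for the genes named from each list in the text. Dashed lines mark a log2 fold change of -1 and 1, and Shmt2 (red, -1.41) is the only gene called.

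The list on amino acid synthesis held the only call. Shmt2, the mitochondrial enzyme that turns serine into glycine, stood at 249.4 and 281 CPM in Prdm16fl/fl kidneys and at 100, 100 and 98.9 CPM in Ksp-Cre/Prdm16fl/fl kidneys. The 3 Ksp-Cre/Prdm16fl/fl kidneys were almost equal and far below the others, and the gene fell by 1.41 ± 0.11 on the log2 scale (adjusted p = 0.024, edgeR). The estimate ranged from -1.498 to -1.32 when any 1 mouse was left out, but the call was lost without each mouse except Ksp-Cre/Prdm16fl/fl mouse 3 (adjusted p of 0.10 without mouse 1, 0.14 without mouse 2, and, in the Prdm16fl/fl group, 0.26 without mouse 1 and 0.49 without mouse 3, edgeR). Cth, which makes cysteine from cystathionine, read 150 and 206 CPM against 85.9, 98.5 and 60.8 CPM. Its groups did not overlap either, with a difference of -1.12 ± 0.24 that missed the threshold (adjusted p = 0.081, edgeR). Both were lower in the group with the lower proximal tubule marker sum. Among the Ksp-Cre/Prdm16fl/fl kidneys that sum was 2952, 3341 and 1737 CPM. Cth had the same order of kidneys as the sum, and Shmt2 was level. The part of the sum was not tested. At the other end, Mthfd1l, of mitochondrial folate metabolism, read 8.43 and 9.69 CPM against 10.6, 10.7 and 30.1 CPM, and Aldh18a1, of proline synthesis, read 9.91 and 10.3 CPM against 17.7, 16.7 and 8.60 CPM. Neither passed (0.92 ± 0.51 and 0.51 ± 0.33), and in opposite ways mouse 3 stood apart from mice 1 and 2. The list's median over 9 genes was 0.026.

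The 14 tested stress targets, genes that ATF4 and CHOP are known to raise, had a median of 0.28, with 13 positive estimates, 7 groups apart and higher (20.3% of all genes), and no call. Gdf15, a secreted stress cytokine, gave the largest estimate at 1.68 ± 0.49 (adjusted p = 0.15, edgeR). It read 16.9 and 17.7 CPM in Prdm16fl/fl kidneys and 39.4, 32.5 and 94.6 CPM in Ksp-Cre/Prdm16fl/fl kidneys, so that every Ksp-Cre/Prdm16fl/fl kidney was clearly higher. Without mouse 3 the Gdf15 difference was 1.06 and passed (adjusted p = 0.0019, edgeR). Sesn2, which inhibits mTORC1, was also higher in every Ksp-Cre/Prdm16fl/fl kidney and highest in mouse 3. It read 21.8 and 23.1 CPM against 29.9, 31.2 and 73.1 CPM (0.99 ± 0.42, adjusted p = 0.28, edgeR). Without mouse 3 the Sesn2 difference was smaller, 0.45, and had an adjusted p of 0.027 (edgeR). The smallest estimates were those of Cebpb (0.13 ± 0.47), a partner of ATF4, and of the tRNA exporter Xpot (-0.0048 ± 0.12), and both changed sign in some fits.

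Amino acid transport had a median of 0.48 over 9 genes, with 8 positive estimates, 5 groups apart and higher (20.3% of all genes), and no call. Without Ksp-Cre/Prdm16fl/fl mouse 3 its median was 0.25, the same to 2 decimals as that of the stress targets. Slc38a2, a sodium-coupled neutral amino acid transporter, read 125 and 115 CPM against 206, 157 and 285 CPM, so all 3 Ksp-Cre/Prdm16fl/fl kidneys were higher (0.85 ± 0.26, adjusted p = 0.16, edgeR). Slc7a11, the cystine importer, was scarce at 1.35 and 0.502 CPM against 1.76, 1.71 and 4.80 CPM, and its estimate of 1.55 ± 0.68 did not pass (adjusted p = 0.29, edgeR). It ranged from 0.89 without Ksp-Cre/Prdm16fl/fl mouse 3 to 2.43 without Prdm16fl/fl mouse 1. Slc3a2, the partner chain of Slc7a11, averaged to no difference (0.0018 ± 0.32) from kidneys that disagreed, at 194 and 199 CPM against 153, 145 and 293 CPM. Without mouse 3 it was -0.40 (adjusted p = 0.026, edgeR). Slc1a5, the glutamine transporter, had an estimate of -0.12 ± 0.14.

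In the genes that control eIF2, the median over 16 was -0.0058. Eif2ak2, the double-stranded RNA sensor PKR, was higher in every Ksp-Cre/Prdm16fl/fl kidney, at 100, 97.2 and 69.6 CPM against 62.9 and 56.8 CPM (0.57 ± 0.19, adjusted p = 0.18, edgeR). Dele1, which relays mitochondrial stress to the eIF2 kinases, was lower in every one, at 47.7, 47.8 and 57.4 CPM against 67.6 and 69.3 CPM (-0.43 ± 0.13, adjusted p = 0.16, edgeR). Without Ksp-Cre/Prdm16fl/fl mouse 3, Eif2ak2 was 0.73 (adjusted p = 0.0026, edgeR) and Dele1 -0.52 (adjusted p = 0.0074, edgeR). Eif2s3x, an eIF2 subunit, and Eif2b2, of its exchange factor, overlapped between groups (0.28 ± 0.17 and -0.18 ± 0.20). The 20 tRNA synthetases, which ATF4 is known to raise together, stayed close to 0, with a median of 0.075 and a range set by Wars (-0.27 ± 0.15) and Dars (-0.20 ± 0.13) below and Vars (0.26 ± 0.12) and Tars (0.42 ± 0.12) above. None passed.

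Among the 9 ER stress sensors the median was 0.20, and at a mean log2 CPM of at least 1 the largest estimates were those of Ern1, which encodes IRE1 (0.28 ± 0.12), and of the protease gene Mbtps2 (0.26 ± 0.15), with Creb3l2 (-0.042 ± 0.20) and Atf6b (-0.14 ± 0.21) at the other end. Creb3l3, under that limit, had 2.06 ± 1.48. The 21 ER folding genes leaned the other way, with a median of -0.19, 18 negative estimates and 8 groups apart and lower (21.3% of all genes), against 1 apart and higher, and no call. Without Ksp-Cre/Prdm16fl/fl mouse 3 this median was -0.030. On deposited TPM, 1 of these genes was apart and lower and 2 were apart and higher, against 1704 and 6481 of all 16394 genes tested. The median log2 ratio of mean TPM was 0.064, against 0.28 over all genes tested. The extremes of the list in edgeR were the BiP cochaperone Dnajb9 (0.38 ± 0.26) and the oxidase Ero1b (0.20 ± 0.19) above, and Erp44 (-0.47 ± 0.15), a thiol retention protein, and Sdf2l1 (-0.47 ± 0.63), a BiP-associated protein, below. Erp44 read 109 and 128 CPM against 90.9, 91.5 and 73.1 CPM, lower in each Ksp-Cre/Prdm16fl/fl kidney, and did not pass (adjusted p = 0.18, edgeR).

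ER-associated degradation (16 genes, median 0.0011) and translocation into the ER (14 genes, median -0.095) split in sign, with 8 positive and 8 negative estimates in degradation and 6 and 8 in translocation. Their groups stood apart and lower for 7 and 6 genes and apart and higher for 1 and 2, against 21.3% and 20.3% of all genes. On deposited TPM they stood apart and lower for 0 and 2 genes and apart and higher for 7 and 8. For all 16394 genes tested these counts were 1704 and 6481. Herpud1, a degradation scaffold, read 309 and 386 CPM against 194, 201 and 307 CPM, with mouse 3 just below the Prdm16fl/fl kidneys (-0.57 ± 0.24, adjusted p = 0.27, edgeR). Sec61g, a small subunit of the translocon, had nearly equal values within each group, 45.7 and 43.2 CPM against 28.9, 28.2 and 27.2 CPM (-0.66 ± 0.11), and missed the threshold on p as well as on fold (adjusted p = 0.055, edgeR). After a gene length correction it was -0.31. Sec62 was also lower in each Ksp-Cre/Prdm16fl/fl kidney (-0.41 ± 0.13, adjusted p = 0.17, edgeR). Sel1l (0.13 ± 0.12), Ube2g2 (0.35 ± 0.15), Sec63 (0.22 ± 0.12) and Spcs3 (0.29 ± 0.20) did not pass.

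**Figure D3:**
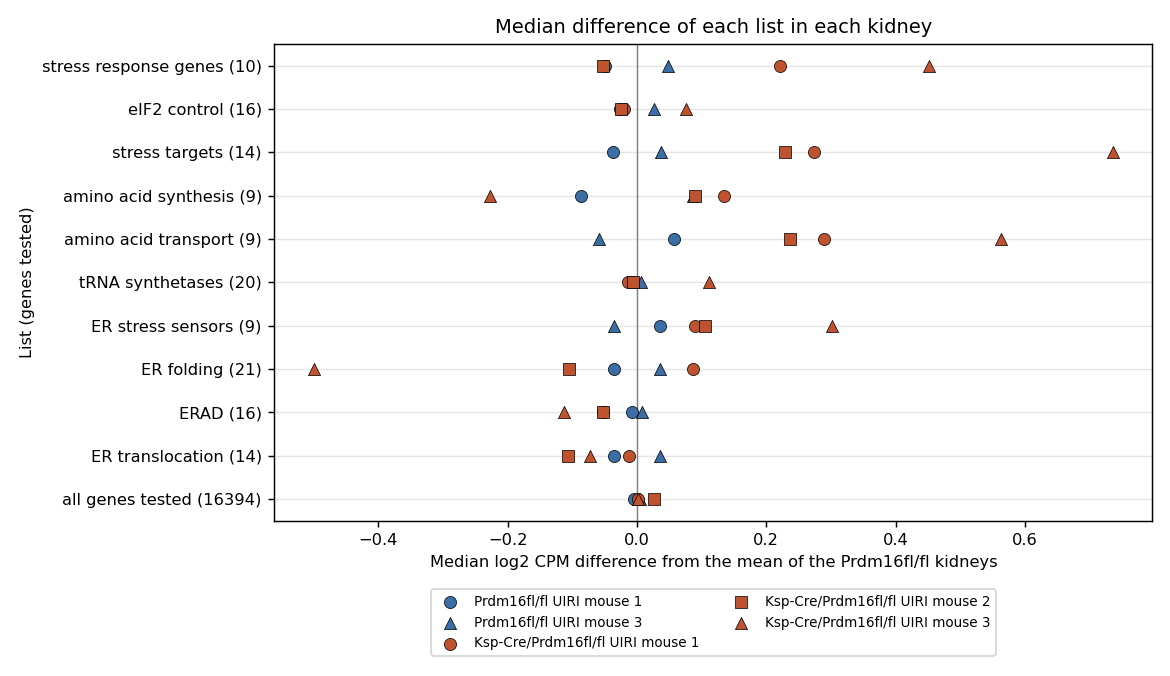
Median log2 CPM difference of each list in each kidney from the mean of the Prdm16fl/fl kidneys, with the number of genes tested in parentheses. Ksp-Cre/Prdm16fl/fl mouse 3 has the highest median for stress targets (0.74) and amino acid transport (0.56) and the lowest for ER folding (-0.50), while the medians over all genes lie within 0.027 of 0.

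The kidney of Ksp-Cre/Prdm16fl/fl mouse 3 stood apart from those of mice 1 and 2. Across all genes tested it lay above both Prdm16fl/fl kidneys for 42.8% of genes and below both for 43.2%. Of the 21 ER folding genes it lay below both for 19 (90.5%), of the 14 stress targets above both for 12 (85.7%), and of the 9 amino acid transport genes above both for 8 (88.9%). Mouse 1 lay above both Prdm16fl/fl kidneys for 10 of the ER folding genes and below for 8, and mouse 2 above for 3 and below for 14. Of the stress targets, mice 1 and 2 lay above both for 9 and 10 (64.3% and 71.4%). Of the amino acid transport genes they did so for 5 and 7 (55.6% and 77.8%), where all genes gave 40.2% and 42.6%. These counts set mouse 3 apart less than those of ER folding. The summed level of the ER folding genes was 5463 and 5564 CPM in Prdm16fl/fl kidneys and 5412, 5012 and 3820 CPM in Ksp-Cre/Prdm16fl/fl kidneys. Chosen after their values were seen, the abundant chaperones Hsp90b1 (693 and 727 CPM against 766, 660 and 374) and Calr (960 and 907 CPM against 821, 766 and 488) showed it, as did Sdf2l1 (15.2 and 18.8 CPM against 20.8, 12.2 and 3.53). In that kidney Atf4, Psat1, Trib3, Sesn2 and Gdf15 were at their highest and Hspa5 at its lowest. Not all stress genes went that way, since Ddit3 (17.5 CPM) and Stc2 (6.26 CPM) were at their lowest there, and Atf3 read 14.9 CPM against 30.2 and 25.6 in mice 1 and 2. This is a description of 1 mouse, with no test.

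**Figure D4:**
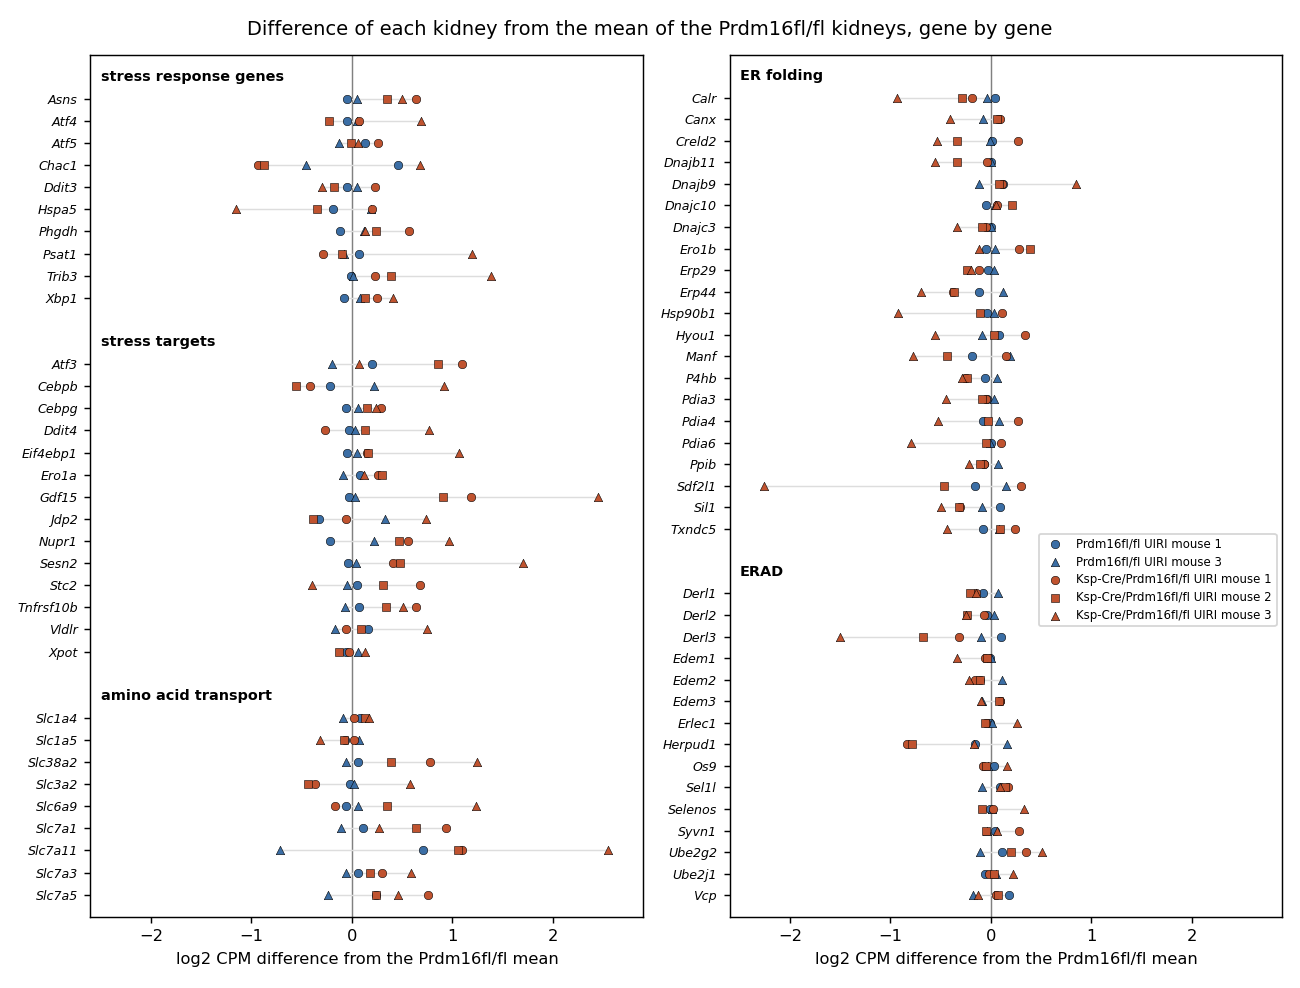
log2 CPM difference of each kidney from the mean of the Prdm16fl/fl kidneys for the tested genes of 5 lists, 1 row per gene and 1 point per mouse. The orange triangles of Ksp-Cre/Prdm16fl/fl mouse 3 lie to the left for most ER folding genes (Hspa5 -1.15, Sdf2l1 -2.26) and to the right for most stress targets (Gdf15 2.45) and for Psat1 (1.19).

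The same kidney also had the lowest proximal tubule marker sum (1737 CPM, against 2952 and 3341 in mice 1 and 2). Its tubular injury sum was the highest (37997 CPM, against 32018 and 32656). Most of that injury sum was Spp1 (33774 CPM), and the markers were split. Lcn2, Krt20 and Sox9 were also highest in mouse 3, but Havcr1, Clu and Vcam1 were lowest there among the Ksp-Cre/Prdm16fl/fl kidneys. The macrophage sum was lowest in mouse 3 (779 CPM, against 1541 and 1400 in mice 1 and 2 and 951 and 1329 in Prdm16fl/fl kidneys). Its 8 markers were split as well. In mouse 3, Lyz2 (229 CPM) and Adgre1 (12.3) lay below both Prdm16fl/fl kidneys, Itgam (56.3) above both, and the others between. The kidney of mouse 3 was also lowest for thick ascending limb (1236 CPM, against 2330 to 2625 in mice 1 and 2) and distal convoluted tubule (327 CPM, against 710 to 1098) and highest for endothelial markers (408 CPM, against 228 and 275). Its B and plasma cell markers (6 of 9 listed, from cells rich in ER chaperones) summed to 37.2 CPM, within the range of 33.0 to 45.1 CPM of all 5 kidneys, but most of that sum was Jchain (24.4 CPM). The median difference of the 5 tested markers was -0.64 there, the lowest of the 5 kidneys. Of the 5, Cd79a, Cd79b and Pou2af1 lay below both Prdm16fl/fl kidneys, from only 4, 28 and 11 reads. Mzb1 (9.93 CPM) lay above mice 1 and 2 (4.31 and 3.43 CPM) and between the Prdm16fl/fl kidneys (6.40 and 10.2 CPM). The part of any of these marker lists in the ER values of mouse 3 was not tested. Without this mouse, 733 of 16196 genes were called (4.53%), but still none of the 10 genes, and 2 of the 128 others (Gdf15 and Shmt2). By adjusted p alone 9 of the 128 were then higher and 8 lower, where all genes gave 7.82% and 11.0%.

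Promoter matches in the wider lists, where 100 of 130 genes had a promoter in the table, were uneven across the lists. ERSE matched 7 of 23 ER folding promoters (30.4%, those of Calr, Canx, Creld2, Dnajc3, Ero1b, Hsp90b1 and Pdia6) and 2 of 13 in ER-associated degradation, and no promoter of the other lists. CARE matched 5 of 13 tRNA synthetase promoters (38.5%) and 5 of 17 stress target promoters (29.4%). Counting Hspa5, 10 tested genes had an ERSE match, with a median log2 fold change of -0.18. Below both Prdm16fl/fl kidneys lay 9 of them in mouse 3, 8 in mouse 2 and 3 in mouse 1 (43.2%, 38.1% and 39.9% of all genes). Above both lay 1 in mouse 3, 1 in mouse 2 and 7 in mouse 1 (42.8%, 42.6% and 40.2%), so mouse 1 leaned the other way. The 19 tested genes with a CARE match had a median of 0.24. Of these, 13 lay above both Prdm16fl/fl kidneys in mouse 3, 10 in mouse 2 and 11 in mouse 1 (42.8%, 42.6% and 40.2% of all genes). Below both lay 3 in mouse 3, 6 in mouse 2 and 3 in mouse 1 (43.2%, 38.1% and 39.9%).

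The targeted gene gave only a partial check of the labels, since counts per gene do not separate exon 9 and cells outside the tubules keep Prdm16. Prdm16 read 25.3 and 20.02 CPM in Prdm16fl/fl kidneys and 17.1, 17.0 and 18.0 CPM in Ksp-Cre/Prdm16fl/fl kidneys. It was lower in all 3, a pattern held by 21.3% of all genes, with a difference of -0.38 ± 0.15 that did not pass (adjusted p = 0.26, edgeR). On deposited TPM the groups overlapped, at 5.86 and 4.21 against 4.64, 4.58 and 4.34.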

How the data were processed

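RNA-seq of injured kidneys from 2 Prdm16fl/fl and 3 Ksp-Cre/Prdm16fl/fl mice was used, grouped by the genotype in the sample labels. The authors made oligo(dT)-selected libraries, read 150 bp paired ends on an MGI instrument, and deposited raw counts per gene and TPM. FPKM was also deposited and not used here. The submitters' processing notes name CASAVA, featureCounts 2.0.1 and DESeq2 1.16.1 without roles, and hg38, a human build. The build behind the coordinates and the use of strand are not given in the sources used here, so overlapping genes are uncertain. In each file, 5 genes broken over several lines were rejoined. Counts were tested with edgeR 4.0.16 (filterByExpr, TMM, quasi-likelihood test, Benjamini-Hochberg over all genes tested) and, as an alternative, DESeq2 1.42.0. SE values are derived from the edgeR statistic. The script was tested on simulated data. The 10 genes, the lists and the motifs were chosen with earlier results of these data known. Named from each list were every called gene and the 2 largest and 2 smallest estimates at a mean log2 CPM of at least 1, except where stated, and 1 gene that the rule names is not reported here. Marker lists were read as sums. Of 11 marker lists, those not fully printed above were thick ascending limb (1236 to 3763 CPM), distal convoluted tubule (327 to 1897), collecting duct (313 to 669), and endothelial (228 to 408) over all 5 kidneys. Further sums separated by genotype, Prdm16fl/fl against Ksp-Cre/Prdm16fl/fl: fibroblast (516 to 762 against 860.1 to 1261), podocyte (448 to 579 against 300.0 to 331) and erythroid (6.67 to 10.8 against 40.5 to 151). Mitochondrial chromosome genes are not analysed here. Counts differed between all libraries beyond sampling noise. With 5 mice, p-values rest on few replicates.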

Additional observations from a re-analysis of the deposited data

How the results depend on the processing

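None of the 10 genes was called in any of the 12 alternative fits. Over all genes, 13 were called higher and 103 lower. DESeq2 called 116 and 379, scaling by library size left 34 lower calls, a gene length correction 2 and 25, and no filter beyond 1 count in total 37 and 250. Leaving out 1 mouse gave 0 to 231 higher and 0 to 502 lower calls, the highest of each when mouse 3 of the Ksp-Cre/Prdm16fl/fl group was left out and 0 in the other 4 fits. The 1 called pathway gene became 3 with DESeq2, 2 without a filter (Shmt2 and Cth, -1.12), and 0 to 2 without 1 mouse. With the mouse number as a block, no gene passed (0 higher, 0 lower, 0 pathway genes), and Shmt2 was -1.41 with an adjusted p of 0.15 (edgeR). Only 2 numbers are shared and no label ties them to a litter, so no pairing was used. Same-numbered deviations correlated at 0.0010 and -0.022. The deviations of the 2 Prdm16fl/fl mice mirror each other, so these correlations can neither show nor exclude pairing. Leaving out 1 mouse turned the sign of 11 named genes, none of them called, with these ranges of the estimate: Atf4 -0.066 to 0.41, Atf5 -0.024 to 0.24, Ddit3 -0.24 to 0.046, Chac1 -0.97 to 0.27, Psat1 -0.19 to 0.69, Eif2b2 -0.36 to 0.018, Xpot -0.071 to 0.055, Cebpb -0.50 to 0.38, Slc3a2 -0.40 to 0.18, Atf6b -0.26 to 0.038 and Creb3l2 -0.25 to 0.20. The negative ends for Atf4, Psat1, Cebpb and Slc3a2 came without Ksp-Cre/Prdm16fl/fl mouse 3. Library size scaling turned Ddit3 (0.057), Xpot (0.11) and Creb3l2 (0.072), the length correction Ddit3 (0.015) and Slc3a2 (-0.053), the block Xpot (0.052), upper quartile scaling Xpot (0.0066), and at least 10 counts in every library Slc3a2 (-0.0045). Library size scaling moved the median of all genes from 0.038 to 0.15, and changes under it are relative to that. The comparison on deposited TPM was chosen after seeing the data. Without Ksp-Cre/Prdm16fl/fl mouse 3, Mthfd1l became 0.24, Dnajb9 0.091, Sdf2l1 -0.030 and Aldh18a1 0.78. Chac1 rests on only 10 to 26 reads per kidney.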
